A study of Mus musculus with 6 samples.

Results

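The genes described here are 10 signalling molecules of the kinds by which Paneth cells (PCs) support intestinal stem cells or by which PCs themselves receive signals. They comprise the Wnt ligands Wnt3, Wnt9b and Wnt11, the Wnt receptor Fzd5, the Notch ligands Dll1 and Dll4, the EGF receptor ligands Egf and Tgfa, the receptor tyrosine kinase Kit, and the surface glycoprotein gene Cd24a. They were picked by name from the Wnt, Notch, EGF and Kit pathways and found by Ensembl identifier, which gave 10 of the 55414 genes in the count table. RNA had been sequenced from PCs sorted from the small intestine of C57BL/6J mice that all lacked Ifnar1, which encodes a chain of the type I interferon receptor, so the controls carried this knockout as well. The groups were 3 mice injected with PBS and 3 mice injected with TNF, each sampled 15 h later, and each mouse gave 1 library. The sources used here do not give the mice's age, the TNF dose, the Ifnar1 allele or the surface markers used for sorting, and no Ifnar1 wild-type library was analysed.

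PCs lie between the Lgr5+ stem cells at the base of the small intestinal crypt and present short-range signals to them. Wnt proteins bind Frizzled receptors with an LRP co-receptor and keep beta-catenin from being degraded, which maintains stem cells and the PC programme itself. Delta-like ligands on the PC surface trigger cleavage of Notch on the touching stem cell, and EGF and TGF-alpha act on the EGF receptor to drive proliferation. CD24 and KIT are surface proteins often used to sort PCs.

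The libraries held 12747484 to 17039511 counts. Levels are given as CPM, counts brought to a common library total by the TMM method (trimmed mean of M-values), and fold changes are log2 values of TNF against PBS from edgeR's quasi-likelihood test, with p-values adjusted over all 13026 tested genes by the Benjamini-Hochberg method. A gene passed at an adjusted p under 0.05. Lyz1, the lysozyme gene that marks PCs, stood at 133835 to 225840.0 CPM and Mmp7, which activates alpha-defensins, at 5568 to 13685 CPM. Ifnar1 was still counted at 5.18 to 12.7 CPM, and since the allele is not given this does not test the knockout. TNF replicate 1 stood apart from its group: its correlation of log2 CPM across genes was 0.884 and 0.883 with TNF replicates 2 and 3 but 0.937 to 0.945 with the PBS libraries. It was kept as labelled, and each result that rests on it is also given without it. It is also the library whose omission raised the count of calls most, from 0 to 1980 genes. Leaving out the TNF library most like PBS favours a difference between the groups, so calls without it depend on values already seen and are not independent evidence of a TNF effect. Where genes are said below to have risen or fallen, this describes TNF replicates 2 and 3 against the 3 PBS libraries.

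With all 6 libraries no niche gene passed between TNF and PBS, 0 of the 8 that could be tested, and neither did any of the 13026 genes, a background of 0%. The estimates of 7 of the 8 were nonetheless below 0, against 50% of all tested genes, and Egf and Wnt3 lay lowest at log2 -1.17 and -0.74. At an unadjusted p under 0.05 there were 2 of 8 niche genes, again Egf and Wnt3, beside 12.3% of all genes. Without TNF replicate 1, Egf, Wnt3 and Dll4 fell, which made 3 of 9 tested niche genes where 14.5% of all genes passed and 5.4% passed as lower. With all libraries but no filter on low counts Egf passed (2.94% of all genes did), and limma-voom with sample weights passed Egf and Wnt3 (11.5%). Such weights can count a library unlike its group less, and limma-voom without them passed 0 niche genes. With TNF replicate 1 left out, DESeq2 and RLE scaling each passed 4 niche genes by adding Dll1 (15.2% and 14.1% of all genes), whereas scaling by library size alone passed Egf only (10.5%). In these bulk samples fewer cells of a type and less RNA per cell cannot be told apart.

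**Figure D1:**
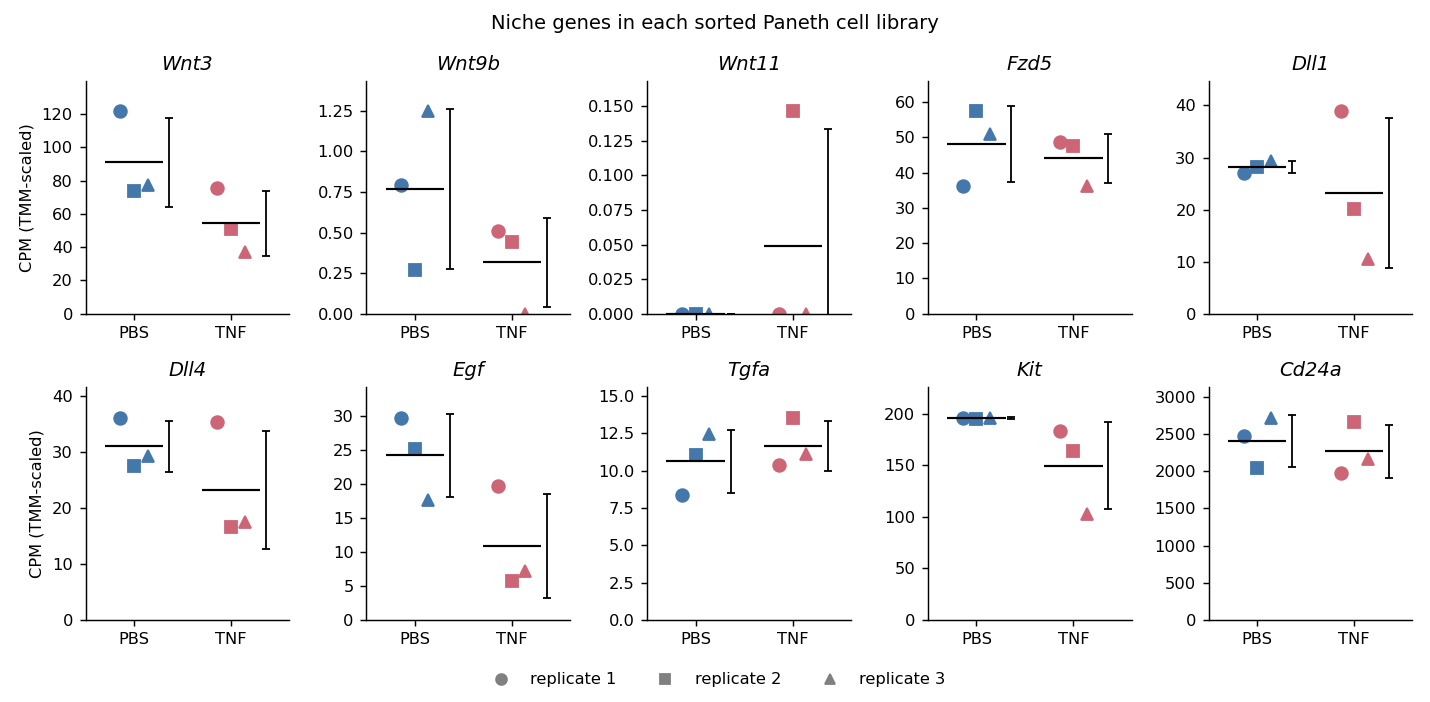
CPM of each of the 10 niche genes in the 3 PBS (blue) and 3 TNF (red) libraries, with replicates 1, 2 and 3 as circles, squares and triangles; lines mark group means and bars 1 SD, and each panel has its own linear axis from 0. TNF replicate 1 lies at or above the PBS level for Dll1 (38.9 CPM) and near it for Dll4 (35.5 CPM), whereas TNF replicates 2 and 3 lie below all PBS libraries for Wnt3, Dll1, Dll4, Egf and Kit.

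The sequences upstream of the 3 genes that fell without TNF replicate 1 are shown because these genes fell in the same comparison. They are the 250 bases before the RefSeq gene start in assembly GRCm38.p6, 5′ to 3′ on the gene's strand, with every CG dinucleotide in capitals. The Wnt3 window is chr11:103773925-103774174 on the plus strand, the Dll4 window chr2:119325534-119325783 on the plus strand, and the Egf window chr3:129755323-129755572 on the minus strand.
Wnt3: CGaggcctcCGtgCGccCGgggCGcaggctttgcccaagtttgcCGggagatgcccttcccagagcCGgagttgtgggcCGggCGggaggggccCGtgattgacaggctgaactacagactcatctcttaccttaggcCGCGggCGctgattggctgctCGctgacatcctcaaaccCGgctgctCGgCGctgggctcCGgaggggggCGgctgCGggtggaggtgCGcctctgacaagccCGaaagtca
Dll4: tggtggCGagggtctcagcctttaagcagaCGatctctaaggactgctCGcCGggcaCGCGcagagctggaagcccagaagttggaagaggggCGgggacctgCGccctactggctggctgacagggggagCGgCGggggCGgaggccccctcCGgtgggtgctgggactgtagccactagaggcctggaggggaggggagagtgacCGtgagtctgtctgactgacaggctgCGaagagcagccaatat
Egf: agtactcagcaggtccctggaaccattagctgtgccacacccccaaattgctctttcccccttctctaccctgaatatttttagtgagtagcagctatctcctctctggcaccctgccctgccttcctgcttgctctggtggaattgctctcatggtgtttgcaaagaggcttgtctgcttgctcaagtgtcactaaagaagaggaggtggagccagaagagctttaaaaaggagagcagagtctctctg
The Wnt3 window held 22 CG and a GC content of 68%, more CG than 85.2% of the 32851 RefSeq windows. The Dll4 window held 14 CG at 65.6% GC, above 70.6% of windows, and the Egf window held 0 CG at 50.4% GC, where the median window has 6. A second, downstream RefSeq start of Egf had 15 CG. How far Egf differed from Wnt3 and Dll4 in CG content thus depended on the start taken, and which start PCs use was not tested.

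Motifs were searched on both strands of the 300-base windows (250 bases before and 50 after the start), of which 13 belonged to 9 of the 10 niche genes. No niche window held the NF-kB motif (GGGA and TTTCC with any 1 base between, in 0.411% of all windows), the RBPJ motif GTGGGAA of Notch signalling (6.38%), the GAS motif TTCNNNGAA (8.3%) or the interferon-response motif (TTTC and TTTC with any 2 bases between, 3.44%). The TCF/LEF motif CTTTGAT of Wnt signalling (3.73% of all windows) and TATAAA (13.6%) each occurred in 1 niche window, that of Wnt11, at 51 and 29 bases upstream of the start. These searches describe letters in short windows and say nothing about binding of a factor.

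Among the Wnt ligands, Wnt3 was the one PCs expressed at a high level, and it was lower after TNF in TNF replicates 2 and 3. Wnt3 (ENSMUSG00000000125, chromosome 11, 103664976 to 103708853, plus strand, GRCm39) encodes the Wnt ligand that PCs supply to neighbouring stem cells. It stood at 122, 73.9 and 77.4 CPM in PBS replicates 1 to 3 and at 75.5, 51.0 and 36.9 CPM in TNF replicates 1 to 3. The groups overlapped only through TNF replicate 1, which lay just above PBS replicate 2. The means were 91.0 ± 26.7 and 54.5 ± 19.5 CPM (SD, n = 3), a log2 fold change of -0.74 (SE 0.31, adjusted p = 0.384). Without TNF replicate 1 it was -1.03 (SE 0.27, adjusted p = 0.0247), or 2.04 times lower. The adjusted p ranged from 0.0247 to 0.920 over the 16 fits planned, and the estimate was below 0 in 16 of 16.

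Wnt9b, a Wnt gene that neighbours Wnt3 on chromosome 11 (103618189 to 103640655, minus strand), was at the edge of detection. Its values were 0.793, 0.266 and 1.25 CPM in PBS against 0.509, 0.439 and 0 CPM in TNF, so the groups overlapped and the filter on low counts kept it out of the test. Wnt11, which is known mainly for beta-catenin-independent signalling, had 0 counts in 5 libraries and 3 counts in TNF replicate 2. A count of 0 allowed up to 0.255 CPM in the shallowest scaled library, taking 3 counts as the limit. No difference in either gene was detectable at this depth.

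Wnt3 made up 96.5% ± 1.29 of the summed level per kilobase of all 19 Wnt genes in PBS and 94.0% ± 2.13 in TNF (SD, n = 3). By library its share was 97.2%, 97.4% and 95.0% in PBS and 96.5%, 92.6% and 93.0% in TNF. Of the other 18 Wnt genes, 3 passed the filter, Wnt5a, Wnt5b and Wnt9a. Wnt5a stood at 2.09, 1.80 and 4.99 CPM in PBS against 2.29, 0.781 and 0 CPM in TNF, whereas Wnt5b had 1.01, 0.266 and 0.0733 CPM in PBS against 1.10, 1.85 and 1.37 CPM in TNF. Wnt9a had 0.432, 0 and 0.807 CPM in PBS against 0.509, 1.61 and 1.21 CPM in TNF. None of the 3 passed with or without TNF replicate 1 (adjusted p = 0.101, 0.268 and 0.347 without it). The Wnt genes beside Wnt3 were thus all at a few CPM or less, with 9 of the 19 at 0 in every library.

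Fzd5 (ENSMUSG00000045005, chromosome 1, 64769717 to 64776934, minus strand), the Frizzled receptor through which Wnt signals mature PCs, had overlapping groups. It was 36.3, 57.4 and 50.9 CPM in PBS against 48.7, 47.6 and 36.2 CPM in TNF. All TNF values but the lowest fell inside the PBS range, and the log2 fold change was -0.13 (SE 0.23, adjusted p = 0.856). Its antisense neighbour Gm38058 covers 18.1% of its exon bases but had only 4 to 18 counts.

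Both Delta-like ligands were lower in TNF replicates 2 and 3 and not in TNF replicate 1. Dll4 (ENSMUSG00000027314, chromosome 2, 119156170 to 119166443, plus strand) had 36.2, 27.6 and 29.3 CPM in PBS against 35.5, 16.6 and 17.6 CPM in TNF. TNF replicate 1 lay within the PBS range and the other two below it. The log2 fold change was -0.42 (SE 0.31, adjusted p = 0.609), and -0.84 without TNF replicate 1 (SE 0.21, adjusted p = 0.0232), with adjusted p from 0.0232 to 0.965 over the fits. Gm14207, an antisense gene on 15.6% of the Dll4 exon bases, had 99, 112 and 123 counts in PBS and 126, 54 and 39 in TNF. It was thus low in the same libraries as Dll4, and since it is not given whether strand was used in counting, reads of the pair cannot be told apart.

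Dll1 (ENSMUSG00000014773, chromosome 17, 15587276 to 15597134, minus strand) had TNF libraries on both sides of the PBS range. It stood at 26.9, 28.2 and 29.3 CPM in PBS, a spread of 4.13% of the mean, and at 38.9, 20.2 and 10.4 CPM in TNF, a spread of 62.4%. TNF replicate 1 was above every PBS library, while TNF replicates 2 and 3 were below every one. The log2 fold change was -0.28 (SE 0.40, adjusted p = 0.806). It was -0.85 without TNF replicate 1 (SE 0.27, adjusted p = 0.0608) and 0.07 without TNF replicate 3 (adjusted p = 0.995), and over the fits the adjusted p ranged from 0.0566 to 0.995. Fam120b overlaps 27.6% of the Dll1 exon bases on the other strand with 265 to 420 counts, and reads of this pair cannot be told apart either.

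Dll4 and Dll1 held 46.6% ± 2.81 and 33.9% ± 3.91 of the summed level per kilobase of the 5 Notch ligands in PBS, and 47.3% ± 7.22 and 35.2% ± 7.85 in TNF (SD, n = 3). Their ratio of counts was 1.34, 0.979 and 1.00 in PBS and 0.913, 0.823 and 1.68 in TNF, a log2 difference of -0.02 (exact two-sided permutation test, p = 1). The ratios of the groups overlapped, with TNF replicates on both sides of the PBS range. Dll3, a delta-like protein that does not activate Notch on other cells, was 6.27, 2.93 and 4.77 CPM in PBS against 2.72, 0.927 and 0 CPM in TNF, and fell without TNF replicate 1 (log2 -3.15, SE 0.89, adjusted p = 0.0371). Jag1 and Jag2, the other Notch ligands, stood at 5.47 to 9.59 and 3.39 to 5.86 CPM over all libraries and did not pass.

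Of the EGF receptor ligands, Egf had a low level in TNF replicates 2 and 3 and Tgfa did not. Egf (ENSMUSG00000028017, chromosome 3, 129470410 to 129549093, minus strand) had the largest estimate of the tested niche genes. Its values were 29.7, 25.1 and 17.7 CPM in PBS against 19.7, 5.71 and 7.15 CPM in TNF. TNF replicates 2 and 3 lay far below all PBS libraries, whereas TNF replicate 1 lay between PBS replicates 2 and 3. The means were 24.2 ± 6.09 and 10.9 ± 7.69 CPM (SD, n = 3), a log2 fold change of -1.17 (SE 0.45, adjusted p = 0.349). Without TNF replicate 1 it was -1.90 (SE 0.28, adjusted p = 0.00138), or 3.72 times lower, and the adjusted p ranged from 0.00138 to 0.919 over the fits, all of which gave an estimate below 0.

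Tgfa (ENSMUSG00000029999, chromosome 6, 86172041 to 86252728, plus strand), the gene of the EGF receptor ligand TGF-alpha, had an estimate near 0. It was 8.36, 11.1 and 12.5 CPM in PBS against 10.4, 13.6 and 11.1 CPM in TNF, with overlapping groups and a log2 fold change of 0.14 (SE 0.26, adjusted p = 0.859). Counts of Egf per count of Tgfa were 3.56, 2.27 and 1.42 in PBS and 1.90, 0.421 and 0.645 in TNF. Egf thus had more counts than Tgfa in the PBS libraries and TNF replicate 1, and fewer in TNF replicates 2 and 3. The log2 ratio differed by -1.49 between groups (exact two-sided permutation test, p = 0.2, adjusted p = 0.4 over 4 pairs), and 0.1 is the smallest p that 3 against 3 libraries allow. The 4 pairs were chosen after their values had been seen.

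**Figure D2:**
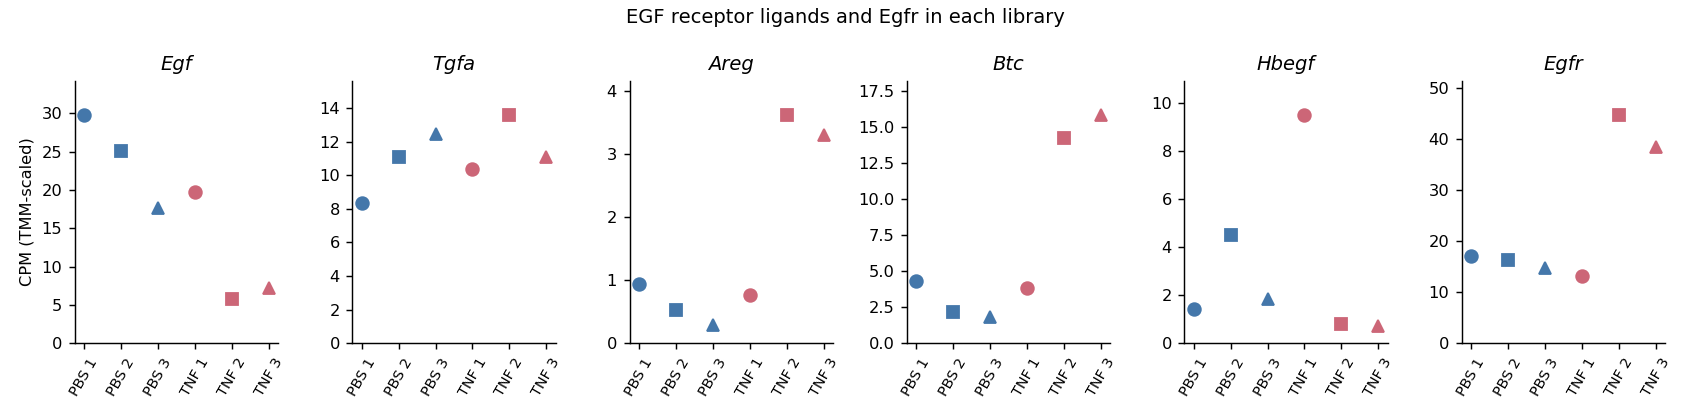
CPM of 5 EGF receptor ligands and of Egfr in each library, PBS in blue and TNF in red, each panel on its own linear axis from 0. In TNF replicates 2 and 3 Egf is low (5.71 and 7.15 CPM) while Areg, Btc and Egfr are above every other library; Tgfa shows no such split, and Hbegf is highest in TNF replicate 1 (9.50 CPM).

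Of the 6 tested EGF family ligands, Egf fell without TNF replicate 1, and Btc (betacellulin) and Areg (amphiregulin) rose. That was 50% of the list beside 14.5% of all genes. Btc was 4.32, 2.13 and 1.83 CPM in PBS against 3.82, 14.3 and 15.8 CPM in TNF, and Areg 0.936, 0.533 and 0.293 CPM in PBS against 0.764, 3.61 and 3.30 CPM in TNF. Without TNF replicate 1 they rose by log2 2.46 (SE 0.38, adjusted p = 0.00156) and 2.56 (SE 0.68, adjusted p = 0.0287). With all libraries their fold changes were 2.03 and 2.11 (adjusted p = 0.278 and 0.333). Hbegf, the gene of heparin-binding EGF-like growth factor, was 1.44, 4.53 and 1.83 CPM in PBS against 9.50, 0.781 and 0.723 CPM in TNF. TNF replicate 1 thus lay above and TNF replicates 2 and 3 below every PBS library, and Hbegf did not pass (log2 0.48 with all libraries, and -1.76 without TNF replicate 1, adjusted p = 0.146). Per kilobase, Egf held 42.4%, 36.4% and 33.0% of the summed level of the 11 EGF family ligands in PBS and 24.0%, 5.18% and 6.76% in TNF. Btc and Areg together with Tgfa made up most of that sum in TNF replicates 2 and 3, at 34.7% and 40.2% for Btc and 32.8% and 31.2% for Areg. In those libraries Btc and Areg held the leading shares, which in every PBS library were those of Egf and Tgfa. In TNF replicate 1 Hbegf held the most, 27.7%. These orders depend on the exon length used. In CPM, Egf exceeded Hbegf in TNF replicate 1 (19.7 against 9.50). Egf also exceeded Areg in TNF replicates 2 and 3 (5.71 and 7.15 against 3.61 and 3.30 CPM). With the longest transcript, Egf in TNF replicate 1 stood at 3.45 CPM per kilobase instead of 1.61. Shares by longest transcript were not computed.

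Kit (ENSMUSG00000005672, chromosome 5, 75735576 to 75817404, plus strand), the receptor for stem cell factor, varied little among PBS mice on this scale (SD 0.462% of the mean, but 7.23% with library size alone). It stood at 196, 195 and 196 CPM in PBS against 183, 164 and 103 CPM in TNF, so that all TNF libraries lay below all PBS libraries. It was the only one of the 8 tested niche genes to separate this way, beside 7.82% of all tested genes. The log2 fold change was -0.39 (SE 0.26, adjusted p = 0.571), and -0.53 without TNF replicate 1 (SE 0.24, adjusted p = 0.176), over a range of adjusted p from 0.0624 to 0.971. With library size alone as the scale the Kit groups overlapped, and instead Wnt3, Dll4 and Egf separated with TNF lower, where 11.2% of all genes did.

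Cd24a (ENSMUSG00000047139, chromosome 10, 43454280 to 43460264, plus strand) was the most abundant niche gene and had overlapping groups. It was 2470.4, 2039 and 2726 CPM in PBS against 1981, 2666 and 2164 CPM in TNF, and its log2 fold change was -0.09 (SE 0.32, adjusted p = 0.932). Counts of Kit per count of Cd24a were 0.0793, 0.0954 and 0.0721 in PBS and 0.0924, 0.0615 and 0.0474 in TNF. These ranges overlapped (log2 difference -0.34, exact two-sided permutation test, p = 0.3, adjusted p = 0.4). The counts of Wnt3 per count of Fzd5, 3.35, 1.29 and 1.52 in PBS and 1.55, 1.07 and 1.02 in TNF, overlapped as well (log2 difference -0.65, p = 0.3 in the same permutation test).

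**Figure D3:**
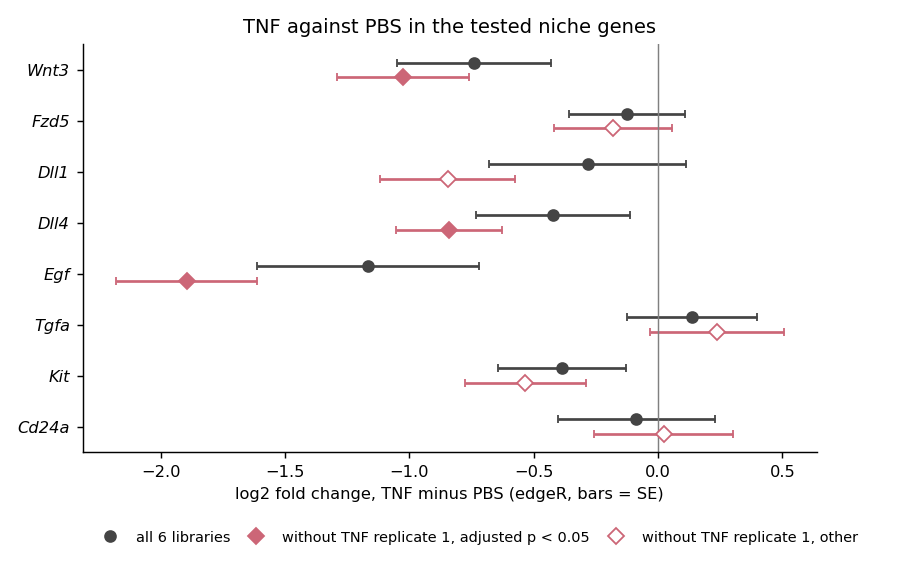
Log2 fold change of TNF against PBS from edgeR (x axis, 0 = no difference) for the 8 tested niche genes, with bars of 1 SE. Circles use all 6 libraries and diamonds leave out TNF replicate 1, filled where the adjusted p is under 0.05; Wnt3 (-1.03), Dll4 (-0.84) and Egf (-1.90) are the filled ones.

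Compared per kilobase of exon, the niche genes differed widely in level in PBS. Cd24a led at 934 ± 134 CPM per kilobase, above 99.8% of the 13003 tested genes with a length. Wnt3 (28.9 ± 8.48) and Kit (20.7 ± 0.0955) followed, above 96.4% and 94.9% of genes. Dll4 (7.87 ± 1.16), Fzd5 (6.95 ± 1.56) and Dll1 (5.67 ± 0.234) lay next, and neighbours in that order overlapped. Egf (1.98 ± 0.498) and Tgfa (1.55 ± 0.306) overlapped too and lay near the middle of all genes, above 49.6% and 42.4%, while Wnt9b stood at 0.170 ± 0.108 and Wnt11 at 0 (all SD, n = 3). Dividing by the longest transcript instead put Kit at 36.7, with a range inside that of Wnt3, and Egf at 4.23, no longer overlapping Tgfa at 2.25.

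**Figure D4:**
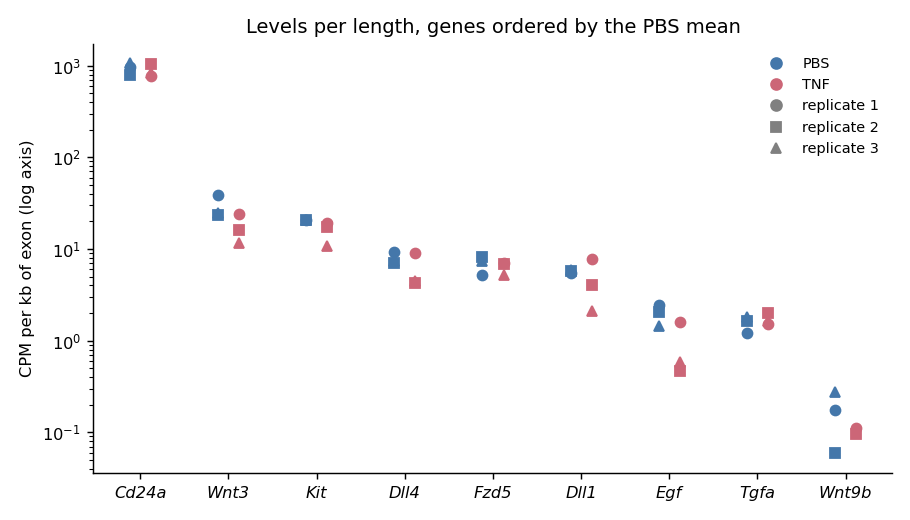
CPM per kilobase of exon on a log axis for 9 niche genes ordered by the PBS mean, PBS in blue and TNF in red, replicates 1 to 3 as circles, squares and triangles. Wnt11 and 1 Wnt9b library at 0 cannot be drawn; Cd24a lies at 790 to 1055 in PBS and no other gene exceeds 38.7.

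To place the niche genes in their pathways, 147 other genes in 12 lists were read from the same fits. Of these, 103 were tested, and 0 passed with all libraries. Without TNF replicate 1, 21 of 104 passed, 10 higher and 11 lower, or 20.2% beside 14.5% of all genes. Over the 16 fits planned, the highest adjusted p of each of these 21 genes lay between 0.897 and 0.996.

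**Figure D5:**
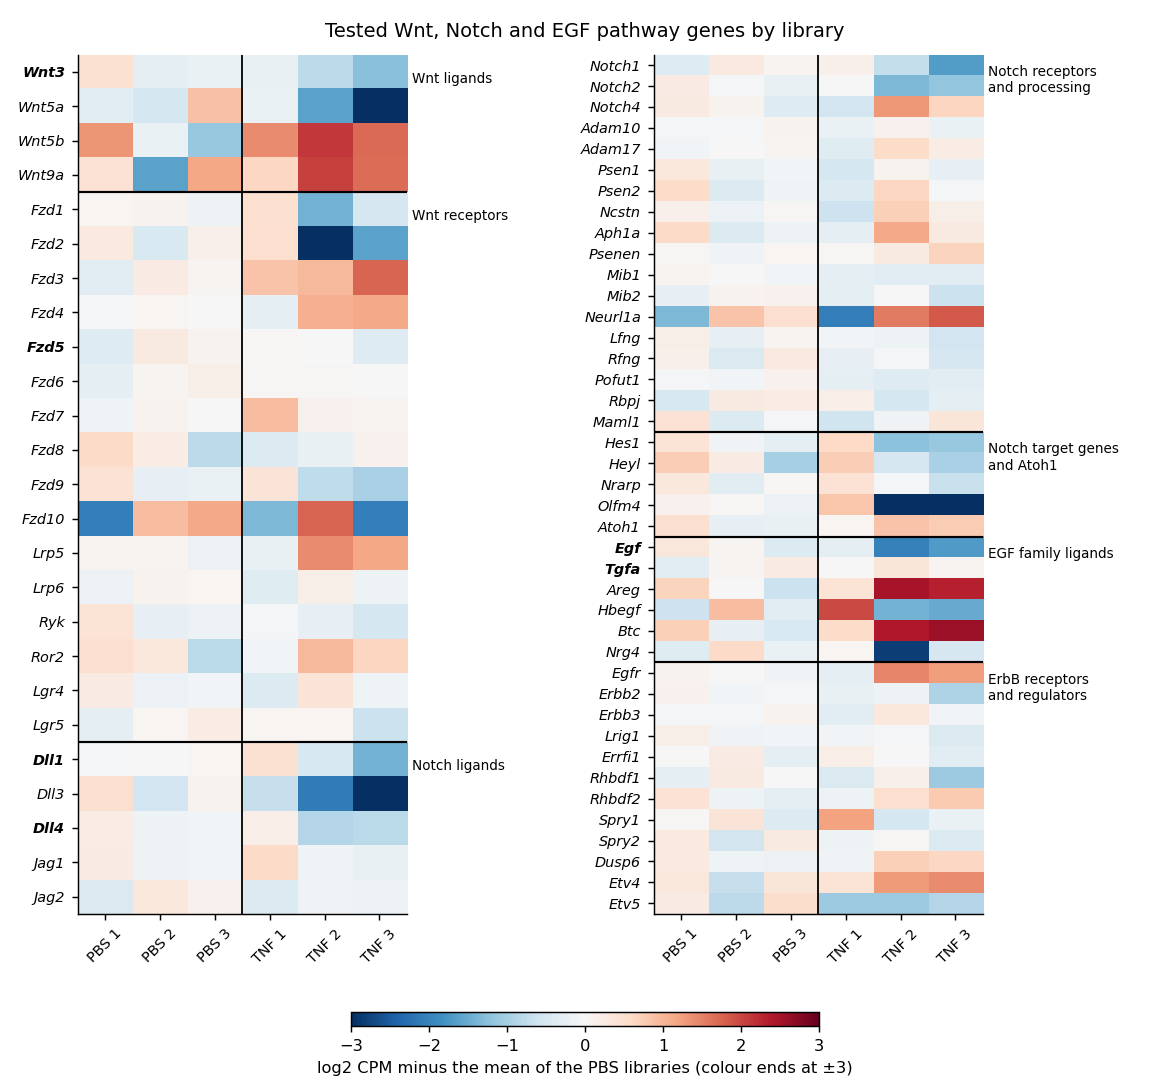
Log2 CPM minus the PBS mean (colour, ends at 3 in either direction) of the tested Wnt, Notch and EGF pathway genes in each library, niche genes in bold. TNF replicate 1 lies inside the PBS range in 31 of the 66 rows, TNF replicate 2 in 17 and TNF replicate 3 in 15, and TNF replicates 2 and 3 share the low values of Egf, Dll3, Notch2, Hes1 and Olfm4 and the high values of Btc, Areg, Egfr and Lrp5.

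Genes of the Wnt secretion route were mixed. Of 9 tested, 2 rose and 1 fell without TNF replicate 1, or 33.3% beside 14.5% of all genes. The list's median was log2 0.26 with all libraries and 0.23 without that one, where all genes had a median of 0.00 and -0.01. The retromer genes Vps29 (log2 0.77, adjusted p = 0.0371) and Vps26a (0.66, adjusted p = 0.0365), which recycle the Wnt carrier, rose, and the cargo receptor gene Tmed5 fell (-0.81, adjusted p = 0.0210). Wls, the Wnt carrier itself, stood at 53.6 to 63.3 CPM in PBS and 59.6 to 82.9 CPM in TNF and did not pass. Porcn, the acyltransferase that lipid-modifies Wnts, was 2.81, 2.60 and 2.20 CPM in PBS against 1.87, 0.976 and 0.964 CPM in TNF and did not pass either (adjusted p = 0.180 without TNF replicate 1).

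Wnt receptors divided in the same comparison, where 18.8% of the tested list passed beside 14.5% of all genes. Lrp5, a Wnt co-receptor, had 58.3, 57.5 and 48.7 CPM in PBS against 47.1, 145 and 122 CPM in TNF, and rose without TNF replicate 1 by log2 1.31 (SE 0.20, adjusted p = 0.00142). The Frizzled gene Fzd4 rose (1.14, adjusted p = 0.0364) and Fzd9 fell (-0.88, adjusted p = 0.0405). The other 13 of the 16 tested, Fzd5 and the R-spondin receptors Lgr4 and Lgr5 among them, did not pass, and the list's median was -0.08 with all libraries and 0.03 without TNF replicate 1. Of 10 tested Wnt inhibitors, 1 passed without TNF replicate 1, or 10%. It was Sfrp5, a secreted Frizzled-related protein, at 6.63, 5.53 and 5.72 CPM in PBS against 5.35, 0.732 and 0.723 CPM in TNF (log2 -2.998, SE 0.48, adjusted p = 0.00193).

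Among 17 Wnt target genes, 2 fell without TNF replicate 1 and 0 rose, or 11.8%, under the 14.5% of all genes. The list's median was -0.29 in both fits. The 2 were the cell cycle gene Ccnd1 (log2 -1.52, adjusted p = 0.00427) and the stem cell transcription factor gene Ascl2 (-2.17, adjusted p = 0.0137). Mmp7 went the other way, at 5568, 5954 and 6883 CPM in PBS against 12865, 7445 and 13685 CPM in TNF, and did not pass (adjusted p = 0.429). All TNF libraries, TNF replicate 1 included, thus lay above all PBS libraries for Mmp7.

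On the receiving side of Notch, 3 of 18 tested receptor and processing genes passed without TNF replicate 1, or 16.7%, near the 14.5% of all genes. Notch1 (log2 -1.12, adjusted p = 0.0363) and Notch2 (-1.28, adjusted p = 0.0230), the receptors known from crypt stem cells, fell, and Notch4, known from endothelium, rose (1.03, adjusted p = 0.0285). Of 5 tested genes in a list of Notch target genes and Atoh1, Olfm4 and Hes1 fell, or 40%. Olfm4, also a stem cell marker, was 2371, 2219 and 1921 CPM in PBS against 3882, 232 and 272 CPM in TNF (log2 -3.09, SE 0.29, adjusted p = 8.69e-05), and Hes1 was 26.2, 18.0 and 15.8 CPM in PBS against 29.5, 8.25 and 8.84 CPM in TNF (-1.21, SE 0.27, adjusted p = 0.0131). Atoh1, the secretory lineage factor that Notch represses, was 127, 76.3 and 77.6 CPM in PBS against 95.1, 166 and 155 CPM in TNF and did not pass (0.80, adjusted p = 0.0564).

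Of 13 tested ErbB receptors and regulators, 2 rose without TNF replicate 1, or 15.4%, also near the 14.5% of all genes. Egfr, the receptor for Egf and Tgfa, had 17.1, 16.2 and 14.7 CPM in PBS against 13.2, 44.6 and 38.4 CPM in TNF (log2 1.39, SE 0.20, adjusted p = 9.73e-04), and Dusp6, a phosphatase induced by ERK signalling, rose by 0.68 (adjusted p = 0.0484). In the Kit list, 2 of 9 passed, or 22.2%. Ptpn11, a phosphatase gene of receptor tyrosine kinase signalling, rose (0.68, adjusted p = 0.0482) and Pik3r1, a PI3-kinase regulatory subunit, fell (-0.74, adjusted p = 0.0370). Kitl, the ligand of Kit, stood at 5.21 to 13.3 CPM in PBS and 4.98 to 18.1 CPM in TNF and did not pass. Of 12 other niche factors, mostly BMP antagonists and R-spondins, 9 were under 1 CPM in all libraries, and 0 of the 3 tested passed.

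Some markers of stem, goblet and enterocyte cells were low in the libraries in which Egf, Wnt3 and Dll4 were low. The summed level of 8 stem cell markers was 2700 to 3288 CPM in PBS, 4836 CPM in TNF replicate 1, and 1006 and 879 CPM in TNF replicates 2 and 3. Olfm4 carried most of this sum: the other 7 markers summed to 917, 835 and 778 CPM in PBS against 955, 774 and 608 CPM in TNF. That of 9 goblet cell markers was 6854 to 7964 CPM in PBS, 8633 CPM in TNF replicate 1, and 4894 and 5183 CPM in the other two. That of 10 enterocyte markers was 318 to 366 CPM in PBS against 271, 119 and 89.8 CPM in TNF. Without TNF replicate 1, 4 of 8 tested stem cell, 6 of 9 goblet cell and 7 of 10 enterocyte markers fell, beside 5.4% of all genes. With all libraries only 7 enterocyte markers were tested, and the smaller TNF group let more past the low-count filter. Those could have entered through PBS libraries in which they were higher, so the count of 7 of 10 depends on the omission. The stem cell marker Lgr5 itself did not fall, at 53.9 to 76.6 CPM in PBS and 42.1 to 68.9 CPM in TNF. Neither did Muc2 of goblet cells, at 1108 to 1856 CPM in PBS and 887 to 2574 CPM in TNF. Sums of 11 PC markers were 405872 to 500773 CPM in PBS and 303518 to 670204 CPM in TNF. Without TNF replicate 1, 1 PC marker was higher, Nupr1 (log2 2.11), and 2 were lower, Clps (-2.13) and Habp2 (-1.25). That was 27.3% of the list beside 14.5% of all genes, so lower markers were not confined to other cell types. The part of these cell types in the lower Egf, Wnt3 and Dll4 was not tested.

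The 9 tuft cell markers summed to 473 to 1688 CPM in PBS and 565 to 1128 CPM in TNF, with Dclk1 at 114 to 477 CPM over all libraries, and 0 passed without TNF replicate 1. The 10 enteroendocrine markers summed to 55.5 to 188 CPM in PBS and 41.6 to 125 CPM in TNF, with Chga at 6.54 to 40.4 CPM, and 1 fell. Mast cells, which also carry KIT, were all but absent, with a sum of 11 markers of 1.04 CPM or less and Cpa3 at 0 in every library. Endothelial cells, which also express Dll4, had a sum of 11 markers of 7.80 to 19.1 CPM with Pecam1 at 0 in 5 libraries, and 10 mesenchymal markers summed to 0.866 CPM or less with Pdgfra at 0 in 5 libraries. Immune markers summed to 21.5 to 53.2 CPM, with Ptprc at 3.89 to 33.8 CPM, and 1 of 3 tested rose without TNF replicate 1. It was S100a9, a neutrophil gene, with 0 counts in the PBS libraries and TNF replicate 1 and with 26 and 13 counts in TNF replicates 2 and 3. With all libraries only 2 immune markers were tested. S100a9 passed the low-count filter only through TNF replicates 2 and 3, where it was high. Its direction was thus set by how it entered, and its adjusted p of 0.0253 is no evidence of a rise. Its part in the niche gene values was not tested.

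The genes whose pattern over the 6 libraries lay nearest to each niche gene were found by the root mean square difference of centred log2 CPM, among the 9767 genes whose log2 CPM averaged 2 or more. Dll4 had the closest neighbours, Hibadh at 0.04, Homer2 at 0.04 and Sesn3 at 0.06, against its own root mean square spread of 0.44. Those of Wnt3 (spread 0.54) were Aldh1b1 at 0.07, Thra at 0.08 and Slc18a1 at 0.09, and those of Dll1 (0.59) were Sinhcaf, Fancm and Pou2af3 at 0.08 to 0.13. Egf, with the widest spread of 0.89, had C4bp at 0.14, Ccnd2 at 0.14 and Hells at 0.16. For Kit (0.33) they were Ints11, Acvr1b and Dennd5b at 0.08 to 0.09. Fzd5 (0.25) lay nearest to Vps37a, Dennd1b and Insr, Tgfa (0.22) to Tmem87b, Akr1b1 and Mtf1, and Cd24a (0.18) to Inafm2, Ddhd1 and Stk3, all within 0.04 to 0.07. No niche gene was among the nearest genes of another. With 6 libraries such likeness is a description, since all genes share the same libraries.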

How the data were processed

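PCs were sequenced in 3 PBS and 3 TNF libraries, 1 mouse each, grouped and numbered by the sample labels. The deposited values were raw counts per Ensembl gene. Per the submitters' processing notes the authors used FastQC, Trimmomatic 0.39, STAR 2.7.10a and DESeq2 with mm39. The sources used here do not name the annotation release, the counting tool, the strand setting or the handling of multi-mapping reads. Shared reads and antisense overlaps can therefore shift a gene's counts. Of 55414 identifiers, 54749 matched GENCODE on GRCm39.

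In R 4.3.3, edgeR 4.0.16 (filterByExpr with minimum count 10 and minimum total 15, TMM, group as the only term, two-sided quasi-likelihood test) left 13026 genes with 99.8% of counts. It was first tried on simulated counts. These had less spread than the real libraries and no library unlike its group, so that check does not cover TNF replicate 1. SE is the log2 fold change over the square root of F. Levels per kilobase used merged exons. Depth was 12747484 to 17039511 counts. The limit of 3 counts came to 0.146 to 0.255 CPM and covers counting error only.

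The niche genes and the 22 gene lists were chosen with earlier results of these data known. Named were the niche genes, up to 3 genes per pathway list past the threshold with all libraries and without the library that moved the count of calls most (TNF replicate 1, so that part of the rule depends on the outcome), the 3 nearest genes of each tested niche gene, and defining markers. Ifnar1, Btc, Areg and other list genes given beside these were named after their values were seen. Alternatives were RLE, upper-quartile and library-size scaling, other filters, DESeq2 1.42.0, voom in limma 3.58.1 with and without sample weights, the replicate number as a block, and leaving out each library.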

Additional observations from a re-analysis of the deposited data

How the results depend on the processing

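With all 6 libraries, genes past the 5% threshold numbered 0 of 13026 by edgeR (1596 at an unadjusted p under 0.05). They numbered 690 with no low-count filter, 253 by DESeq2, 1501 by limma-voom with sample weights, and 0 to 1980 when 1 library was left out, the upper end without TNF replicate 1. Niche genes past 5% went from 0 to 1 with no filter (Egf), 2 with sample weights (Wnt3 and Egf) and 0 to 3 when leaving out 1 library. Pathway list genes past 5% went from 0 to 3, 1 by DESeq2, 15 with sample weights and 0 to 21. With TNF replicate 1 left out, settings chosen after seeing the data gave 4 niche genes by DESeq2 and 4 with RLE factors (Dll1 added) and 1 (Egf) with library size alone, where Wnt3 had an adjusted p of 0.0512. Library size alone also moved the median of all genes to log2 -0.11.

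Leaving out 1 library turned the direction of Fzd5 (-0.29 to 0.016), Dll1 (-0.85 to 0.070), Tgfa (-0.019 to 0.24) and Cd24a (-0.25 to 0.022), none of which passed in these fits. Egf (-1.90 to -0.88), Wnt3 (-1.03 to -0.47), Dll4 (-0.84 to -0.25) and Kit (-0.53 to -0.17) stayed below 0. The cause was not tested. Of 10 levels per kilobase, 5 moved by more than the PBS spread with the longest transcript.

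Deviations of same-numbered replicates from their group means correlated at r = -0.01, -0.07 and 0.03. These values showed no pairing by number, but a batch shared by same-numbered libraries was not tested. The replicate block left 0 genes, 0 niche genes and 0 pathway genes past 5%. It put Egf at -1.34 (SE 0.34, adjusted p = 0.378) and Wnt3 at -0.76 (SE 0.22, adjusted p = 0.386). Without the block their SEs were 0.45 and 0.31. P-values set the group difference against the spread among mice, with 3 mice per group when all libraries were used. In the fits without TNF replicate 1, the TNF group had fewer mice than the PBS group. Wnt9b and Wnt11 were limited by depth.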
